A study of Mus musculus with 3 samples.

Results

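Transcripts of 10 genes of prostaglandin synthesis and reception were examined in adipose derived mesenchymal stem cells (MSC), which are stromal cells that adhere and divide in culture. The cells came from fat pads of the C57BL/6 strain, taken from adult mice, and were grown in advanced MEM with fetal bovine serum. The genes were the cyclooxygenases Ptgs1 and Ptgs2, the prostaglandin E2 synthases Ptges, Ptges2 and Ptges3, the prostacyclin synthase Ptgis, and the receptors Ptger2, Ptger4, Ptgir and Ptgfr. They were taken by symbol, and all 10 were found among the 43346 genes of the table. The study is titled for MSC transplantation and venous stenosis of haemodialysis fistulas. It supplied 3 libraries of 1 group of such cultures, without any control or treated arm. The labels do not say which fat pad was used, at what passage the cells were taken, or whether each library had its own mouse or dish, so an SD here may be technical.

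Prostaglandins are made from arachidonic acid that phospholipases cut from membranes. A cyclooxygenase converts it to the unstable endoperoxide prostaglandin H2, which terminal synthases turn into prostaglandin E2, prostacyclin and their relatives. These leave the cell and act on G protein coupled receptors nearby, which raise cyclic AMP or calcium depending on the receptor. In these cells the pathway is known for prostaglandin E2, through which the cells are reported to restrain immune cells, and in the vessel wall prostacyclin is known for relaxing smooth muscle and holding platelets at rest.

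Values are the RPKM that the authors deposited, which are reads divided by gene length and library size, given as mean ± SD with n = 3 libraries unless a library is named. The smallest steps of the table fixed the scaling totals at 28791578, 32962010 and 32001147 reads for libraries 1, 2 and 3, and with them the reads behind the 10 genes were inferred, those of Ptgfr only as the smallest whole numbers allowed. A gene counted as detected where no library fell below an RPKM of 1. By that rule 7 of the 10 genes were detected, beside 28.3% of all 43346 genes and 47.4% of the 22032 protein-coding genes. The 10 genes had a median mean RPKM of 2.54, against 0.812 for protein-coding genes and 0.0464 for all genes.

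Stromal markers were present, as the label has it, but the markers examined did not set stromal cells apart from mesothelial ones. All 6 stromal markers were detected, with a summed RPKM of 498.9 to 521.6 over the libraries. Most of that sum was Itgb1, at 329 ± 13.0, and the next highest stromal marker, Pdgfrb, had 52.5 ± 0.383. The mesothelial marker Upk1b, at 70.1 ± 5.23, lay above every stromal marker but Itgb1, so the sums do not rank the cell types. Upk3b, also mesothelial, had 43.7 ± 3.30, above every stromal marker but Itgb1 and Pdgfrb. All 6 mesothelial markers were detected too, summing to 165.9 to 185.9, as were 5 of the 6 macrophage markers, summing to 38.3 to 40.2. Most of the macrophage sum was Lyz2, at 26.2 ± 1.51. Of the endothelial markers 1 of 5 was detected (sum 2.22 to 2.36, Cldn5 at 0), and of the megakaryocyte and platelet markers 1 of 4 (sum 2.38 to 3.78, Gp9 at 0). No mast cell marker of 4 (sum 0.0774 to 0.133, Fcer1a and Cpa3 at 0) and no adipocyte marker of 5 (sum 0.0291 to 0.0593, Adipoq and Cfd at 0) was detected. In such bulk RNA a low value can come from few cells or from little RNA per cell, which cannot be told apart, and which cells of the culture carried each transcript was not tested.

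The first enzyme of the pathway is encoded by a pair of genes, Ptgs1, known as the constitutive cyclooxygenase, and Ptgs2, known as the form induced by cytokines, growth factors and serum. The sequence around each annotated start, from 250 bases before it to 50 bases after it, is shown because both genes had a like RNA level here while their proximal promoters carry different letters. Whether these letters bear on the RNA levels was not tested. The windows are RefSeq sequence on GRCm38.p6, at chr1:150099781-150100080 on the plus strand for Ptgs2 and chr2:36230176-36230475 on the plus strand for Ptgs1. Capitals mark every match, on either strand, to the motifs searched, which were the TATA box (TATAAA), the CCAAT box (its own letters), the GC box (GGGCGG), the E-box (CACGTG), the C/EBP palindrome (TTGCGCAA), the full cyclic AMP response element or CRE (TGACGTCA) and its core (TGACG). Of the 10 genes, all but Ptgis matched a window, which makes 9.
Ptgs2: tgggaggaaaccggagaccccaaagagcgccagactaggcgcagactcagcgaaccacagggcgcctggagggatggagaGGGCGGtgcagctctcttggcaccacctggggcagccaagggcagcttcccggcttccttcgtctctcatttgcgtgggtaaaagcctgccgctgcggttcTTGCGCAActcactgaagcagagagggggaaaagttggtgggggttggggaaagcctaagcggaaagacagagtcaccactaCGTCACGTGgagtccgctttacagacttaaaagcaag
Ptgs1: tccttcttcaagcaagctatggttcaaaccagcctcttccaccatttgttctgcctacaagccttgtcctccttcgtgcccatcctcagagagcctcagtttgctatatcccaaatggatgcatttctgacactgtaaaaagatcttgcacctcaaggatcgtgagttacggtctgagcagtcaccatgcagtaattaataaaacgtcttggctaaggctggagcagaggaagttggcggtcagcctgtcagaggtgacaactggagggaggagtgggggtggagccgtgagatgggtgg

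The Ptgs2 window held the C/EBP palindrome TTGCGCAA at positions -69 to -62, counted with the start base as 0. All positions follow the annotated start, and whether these cells used that start was not tested. It also held the E-box CACGTG at 16 to 21, the CRE core TGACG on the other strand at 13 to 17, which overlaps the E-box, and 1 GC box, GGGCGG, at -170 to -165. Of 32851 such windows in the mouse genome, 0.183% held TTGCGCAA, 7.15% CACGTG, 20.8% TGACG and 35.7% GGGCGG. None of the 7 motifs was matched in the Ptgs1 window, whose GC content was 50.7%, against 59.3% in that of Ptgs2 and a median of 52.7% over all windows. Among the other genes, Ptges3 and Ptger4 had 4 GC boxes each, Ptgir and Ptgfr 2 each, and Ptges2 and Ptger2 none. A match of letters is a description and does not show that a factor was bound.

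The RNA of both cyclooxygenase genes was abundant. Ptgs2, at chr1:150100031-150108227, had 31.5, 29.3 and 31.9 RPKM in libraries 1, 2 and 3, which rest on 4151, 4418 and 4673 reads. Ptgs1, at chr2:36230426-36252272, had 28.2, 25.5 and 25.5 RPKM from 3159, 3271 and 3174 reads. The ranges did not overlap, Ptgs2 being the higher gene in each library. Of the protein-coding genes, 94.9% lay below Ptgs2 and 93.8% below Ptgs1. The log2 ratio of Ptgs2 over Ptgs1, with 0.1 added to each RPKM, was 0.22 ± 0.09 (SD, n = 3), a 1.17-fold higher Ptgs2. With 3 libraries the smallest p that the two-sided exact sign-flip permutation test can give is 0.25, which each of the 6 ratios tested here reached, so none could pass a threshold of 0.05.

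The order of the cyclooxygenases depended on the length by which the reads were divided. The deposited values matched the union of all annotated exons, 4580 bases for Ptgs2 and 3884 for Ptgs1, whereas the longest single transcript is 4453 bases for Ptgs2 and 2867 for Ptgs1. Per longest transcript Ptgs2 stood at 31.7 ± 1.45 and Ptgs1 at 35.8 ± 2.12, which turned the log2 ratio to -0.17 ± 0.09. Neither cyclooxygenase can thus be called the more abundant from these values.

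**Figure D1:**
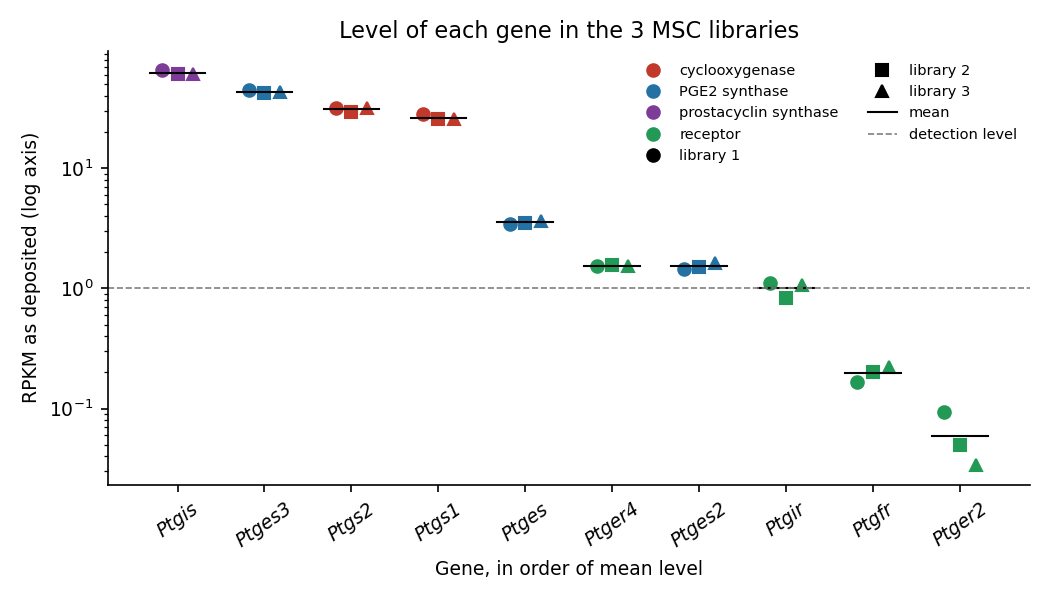
RPKM as deposited (vertical, log axis) of the 10 genes in order of mean level; each symbol is a library, the bar is the mean and the dashed line the detection level of 1. Ptgis, Ptges3, Ptgs2 and Ptgs1 lay between 25.5 and 65.2 in every library, and Ptgfr and Ptger2 reached at most 0.222.

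Among the terminal synthases, the transcript of prostacyclin synthase was the highest of the 10 genes. Ptgis, at chr2:167191805-167240604 on the minus strand, encodes the cytochrome P450 enzyme that forms prostacyclin. It had 65.2, 61.4 and 60.6 RPKM in libraries 1, 2 and 3, from 4817, 5197 and 4984 reads. Library 1 was the highest, and each library lay above every value of the other 9 genes. The mean of 62.4 ± 2.41 ranked 501 among the protein-coding genes. Ptgis exceeded Ptgs2 within each library, with log2 ratios of 1.05, 1.07 and 0.93 and a mean of 1.01 ± 0.08, or 2.02-fold. The protein-coding genes nearest to it in level over the 3 libraries, by the Euclidean distance of log2(RPKM + 1), were Ctsb, Psmb1 and Pcbp1 at distances of 0.07, 0.07 and 0.08. Those nearest to Ptgs2 were Rpl30, Ndufb11 and Errfi1, at 0.04, 0.04 and 0.05. With 3 libraries of a single group such a distance measures little beyond equal level.

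The 3 genes named prostaglandin E2 synthases stood at very different levels. Ptges encodes the membrane-bound, inducible enzyme that is known to work together with Ptgs2. It had 3.45, 3.53 and 3.66 RPKM in libraries 1, 2 and 3, from 391, 457 and 461 reads. Ptges2 encodes the membrane-associated second form, and its 1.449, 1.499 and 1.643 RPKM came from 211, 250 and 266 reads. The values of Ptges lay above those of Ptges2 in every library. The log2 ratio of Ptges over Ptges2 was 1.16 ± 0.05, which is 2.24-fold.

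The proximal promoter of Ptges is shown because, unlike those of both cyclooxygenases, it held tandem GC boxes, GGGCGG, at -53 to -48 and at -42 to -37. Capitals mark these boxes, the only matches to the 7 motifs in the window chr2:30903248-30903547, which is given in the direction of the gene, on the minus strand. The window surrounds the RefSeq start, which lies inside the longer GENCODE span of Ptges, chr2:30889471-30929863.
Ptges: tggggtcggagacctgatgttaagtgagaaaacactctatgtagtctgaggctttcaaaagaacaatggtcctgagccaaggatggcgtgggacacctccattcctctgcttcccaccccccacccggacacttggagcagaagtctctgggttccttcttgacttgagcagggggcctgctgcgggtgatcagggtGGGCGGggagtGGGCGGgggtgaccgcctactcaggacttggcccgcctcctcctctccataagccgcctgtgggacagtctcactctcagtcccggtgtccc

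Ptges3 encodes p23, a co-chaperone of Hsp90 that was also described as a cytosolic prostaglandin E2 synthase. It had 44.9, 42.0 and 43.2 RPKM in libraries 1, 2 and 3, from 2867, 3069 and 3069 reads. It took 89.5% ± 0.571 of the summed RPKM of the 3 synthase genes, against 7.33% ± 0.341 for Ptges and 3.16% ± 0.239 for Ptges2. The log2 ratio of Ptges3 over Ptges was 3.57 ± 0.08, or 11.9-fold. The other Hsp90 co-chaperone genes examined, counted with Hsp90 itself, stood high as well, all 12 of 12 being detected with a median of 46.5. Hsp90ab1 had 738 ± 12.6, Hsp90aa1 178 ± 8.83, Cdc37 92.0 ± 2.13 and Stub1 55.9 ± 0.926, and Fkbp5 was the lowest at 5.06 ± 0.363.

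The reads of Ptges3 could be shared with a processed pseudogene. Gm9769, at chr6:85843980-85844459, is 480 bases long and identical in every base to positions 332 to 811 of the 2000-base Ptges3 transcript. The table listed Gm9769 at 56.6, 57.5 and 51.7 RPKM, from 784, 912 and 796 reads. Over an identical stretch, reads of the gene and of the copy cannot be told apart, and how the authors' counting placed them is not given in the sources used here. With the reads of Gm9769 added, Ptges3 came to 55.4 ± 1.57 RPKM, and its log2 ratio over Ptges to 3.93 ± 0.08. The level of Ptges3 is accordingly uncertain. With the copy's reads added it still lay below Ptgis in each library. Adding reads can only raise Ptges3, so its place above Ptgs2 was not put to the test. The case in which reads of the copy were already counted in Ptges3 was not computed. The first 90 bases that both loci share are shown to make this identity visible, with the first codon of the known Ptges3 reading frame in capitals.
Ptges3 and Gm9769: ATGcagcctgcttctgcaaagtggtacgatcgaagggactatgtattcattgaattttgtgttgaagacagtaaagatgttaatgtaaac

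**Figure D2:**
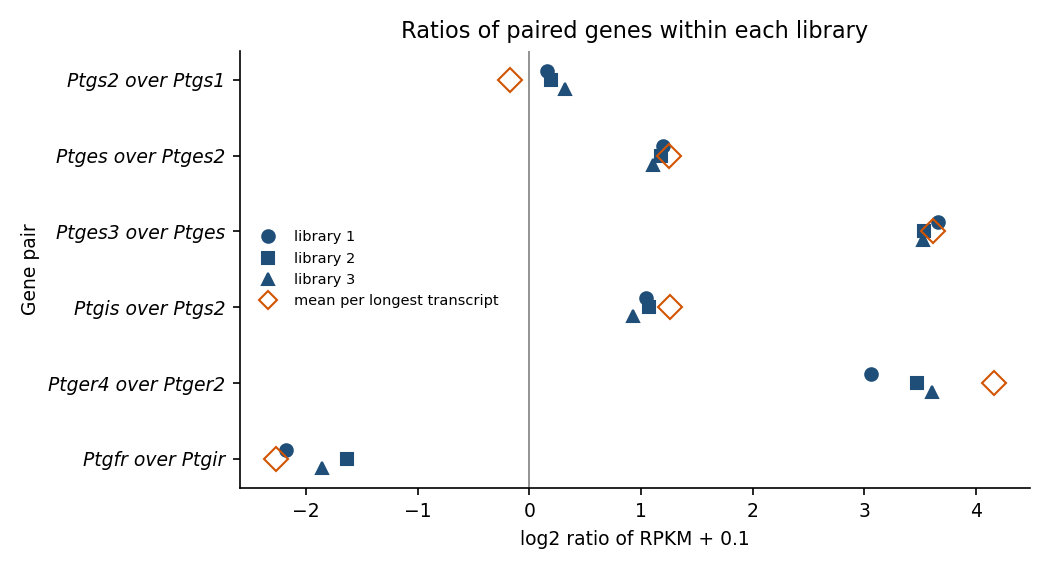
Log2 ratio of RPKM + 0.1 (horizontal) within each library for the 6 gene pairs; filled symbols are libraries and open diamonds the mean after dividing reads by the longest transcript. For Ptgs2 over Ptgs1 the diamond, at -0.17, lies on the other side of 0 from the libraries, whose mean is 0.22.

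The 4 receptor genes lay below Ptgis, Ptges3, Ptgs2, Ptgs1 and Ptges in every library, while Ptger4 stood level with the enzyme gene Ptges2. Ptger4 encodes EP4, a receptor for prostaglandin E2 that raises cyclic AMP, and was the only detected receptor of the 4, a call lost at a threshold of 2 and after rescaling to TPM. It had 1.53, 1.56 and 1.54 RPKM in libraries 1, 2 and 3, from 292, 341 and 327 reads. The values were almost equal, and they lay within the range of Ptges2, the one pair of neighbours in the order of the 10 genes whose ranges overlapped. The log2 ratio of Ptger4 over Ptges2 was 0.01 ± 0.09. Per longest transcript Ptger4 came to 2.71 ± 0.0272, against 1.55 ± 0.102 for Ptges2, since its exon union of 6648 bases is much longer than its longest transcript of 3771 bases. A pseudogene on the other strand, Gm15937, shares 1015 exonic bases with Ptger4 and was listed at 0.674, 0.540 and 0.354 RPKM, and Ttc33, also on the other strand, shares 82 bases and was listed at 6.42 to 6.80. Whether strand was used in counting is not given in the sources used here.

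Ptger2 encodes EP2, the other cyclic AMP raising receptor for prostaglandin E2. It stood at 0.0943, 0.0494 and 0.0339 RPKM in libraries 1, 2 and 3, from 10, 6 and 4 reads. The exact 95% Poisson intervals were 0.0452 to 0.173, 0.0181 to 0.108 and 0.00924 to 0.0868, covering counting error only, so the 3 libraries overlapped at this depth. The level that 3 reads give was 0.0283, 0.0247 and 0.0254, and library 3 was just above it. Gm17173, which lies antisense to Ptger2 and shares 246 exonic bases with it, was listed at 0.0848, 0.0212 and 0.0109 RPKM. Library 1 was the highest and library 3 the lowest for both genes. Ptger4 exceeded Ptger2 in each library, with log2 ratios of 3.06, 3.47 and 3.61 and a mean of 3.38 ± 0.28, or 10.4-fold. At so low a denominator the ratio followed the added constant, being 28.5-fold with nothing added, 2.40-fold with 1 added and 17.9-fold per longest transcript.

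Ptgir encodes the prostacyclin receptor IP, which also raises cyclic AMP. It had 1.11, 0.837 and 1.07 RPKM in libraries 1, 2 and 3, from 107, 92 and 114 reads. Library 2 alone lay below 1, and without it Ptgir would count as detected. Its mean of 1.01 ± 0.149 compares with the 62.4 ± 2.41 of Ptgis, the synthase of its ligand. Ptgfr encodes FP, the receptor for prostaglandin F2 alpha, which signals through calcium. It had 0.167, 0.202 and 0.222 RPKM, from 21, 29 and 31 reads, the smallest whole numbers that the values allow. All 3 values were below the lowest of Ptgir, and the log2 ratio of Ptgfr over Ptgir was -1.89 ± 0.28. That is a 3.71-fold lower Ptgfr. The log2 ratio was -2.35 with nothing added to the RPKM and -0.74 with 1 added.

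The remaining prostanoid receptor genes placed these 4 in context. Of the other 5 receptors only Tbxa2r, which encodes the thromboxane receptor TP, was detected, at 8.05, 7.83 and 7.67 RPKM in libraries 1, 2 and 3. Its mean of 7.85 ± 0.192 made up 69.0% ± 1.15 of the summed RPKM of all 9 prostanoid receptor genes, against 13.5% ± 0.452 for Ptger4, 8.83% ± 1.15 for Ptgir, 1.73% ± 0.274 for Ptgfr and 0.517% ± 0.261 for Ptger2. These shares rest on the deposited RPKM and were not recomputed per longest transcript, by which the mean of Ptger4 rose from 1.54 to 2.71. Ptger1 had 0.497 ± 0.0382, Ptger3 0.198 ± 0.0918 and Ptgdr2 0.0285 ± 0.0147, and Ptgdr was the lowest at 0.00644 ± 0.00558. The enzyme that makes the ligand of Tbxa2r, thromboxane synthase Tbxas1, stood at 0.130 ± 0.0135.

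The steps before and after the 10 genes were compared by list, 101 genes in 8 lists, of which 66 were detected. By the same rule 28.3% of all genes and 47.4% of protein-coding genes were detected, and no list was tested against these shares. Of 20 genes for arachidonate release 7 were detected, with a list median of 0.160. They were led by the lysosomal phospholipase gene Pla2g15 at 11.0 ± 0.532, followed by Pla2g4a, the cytosolic phospholipase A2 known to feed the cyclooxygenases, at 9.86 ± 0.340, Pla2g12a at 5.53 ± 0.945 and Pla2g6 at 3.39 ± 0.328. The secreted forms Pla2g2a, Pla2g2f and Pla2g10 were listed at 0, of which Pla2g2a carries the biotype of a polymorphic pseudogene. Of 8 other terminal synthases and reductases 5 were detected, with a median of 3.78. Akr1b8, an aldo-keto reductase, had 16.9 ± 0.645, the carbonyl reductase gene Cbr1 8.07 ± 0.625, the prostamide and prostaglandin F synthase gene Fam213b 6.55 ± 1.07 and Akr1b3 5.62 ± 0.343. The prostaglandin D synthases were not detected, Hpgds standing at 0.206 ± 0.0718 and Ptgds at 0.0247 ± 0.0280.

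All 7 genes of prostanoid breakdown and transport were detected, with a median of 6.51. The 15-oxoprostaglandin reductase gene Zadh2 had 8.55 ± 0.773, the prostaglandin uptake transporter gene Slco2a1 8.13 ± 0.404, the reductase gene Ptgr1 6.83 ± 0.513 and Cbr3 6.51 ± 0.547. Hpgd, the dehydrogenase that starts prostaglandin inactivation, was the lowest at 1.49 ± 0.0997. The lipoxygenase branch, which competes for the same arachidonic acid, had 1 detected gene of 12 and a median of 0.0828. That gene was Lta4h at 22.3 ± 0.425, an enzyme that is also an aminopeptidase. The 5-lipoxygenase gene Alox5 stood at 0.0955 ± 0.0436, its partner Alox5ap at 1.12 ± 0.269 and the leukotriene receptor genes Cysltr1 and Ltb4r1 at 0.363 ± 0.0346 and 0.108 ± 0.112, with Cysltr2 the lowest at 0.00578, from reads in library 3 alone.

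Of 23 genes of G protein and cyclic AMP signalling, through which the receptors act, 19 were detected, with a median of 4.96. The inhibitory subunit gene Gnai2 had 92.2 ± 2.19, the protein kinase A regulatory gene Prkar1a 73.0 ± 1.01, Gnas, the stimulatory subunit used by EP2, EP4 and IP, 49.7 ± 2.78 and Gnai3 32.5 ± 1.64, and the cyclase gene Adcy8 was the lowest at 0.101 ± 0.0554. All 14 genes known to act on Ptgs2 transcription or messenger RNA stability were detected, with a median of 18.0. Cebpb, a C/EBP family member, had 52.4, 55.2 and 92.2 RPKM in libraries 1, 2 and 3, and library 3 stood apart from the other two. Ptgs2 in library 3 was 31.9, against 31.5 and 29.3 in libraries 1 and 2. Cebpd had 41.2 ± 2.99, the RNA-binding gene Khsrp 34.2 ± 0.423, Zfp36l2 29.6 ± 1.59 and Nfatc1, the lowest, 1.74 ± 0.0110.

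**Figure D3:**
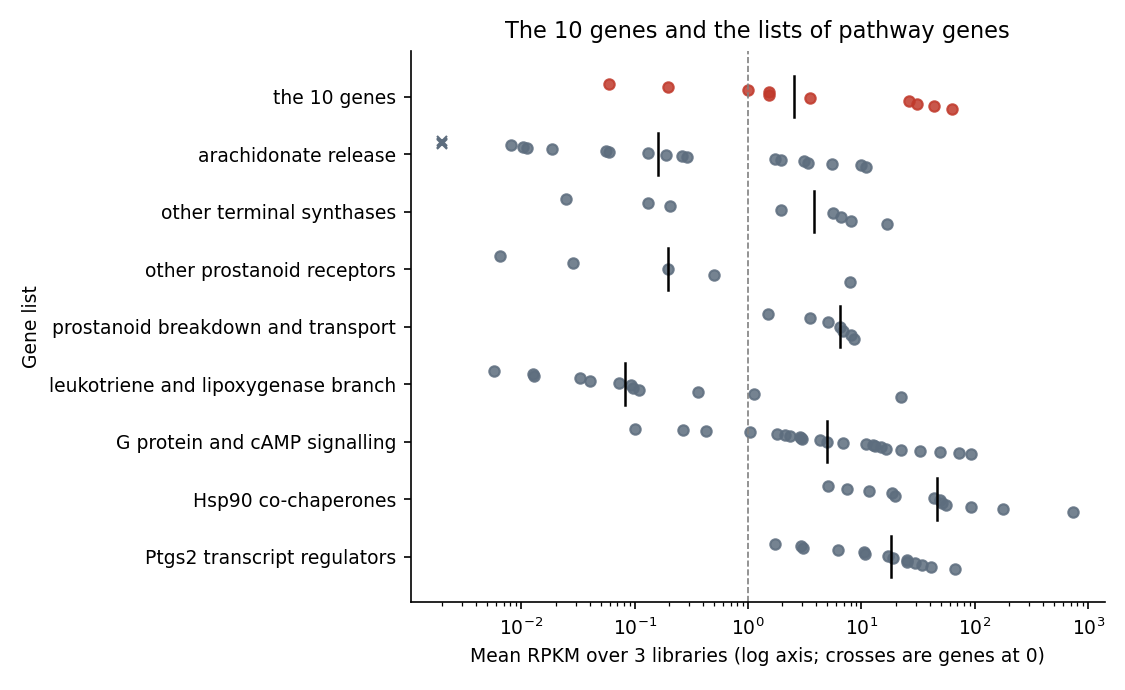
Mean RPKM over the 3 libraries (horizontal, log axis) of the 10 genes and of the genes of 8 pathway lists; each point is a gene, the black tick is the list median, crosses are genes at 0 and the dashed line is an RPKM of 1. The 10 genes span 0.0592 to 62.4 with a median of 2.54, and the lipoxygenase list has a single gene right of the dashed line apart from Alox5ap, whose mean of 1.12 hides 2 libraries below 1.

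As deposited, the 3 libraries differed little in the 10 genes. Among the 7 detected genes the CV between libraries ran from 1.004% for Ptger4 to 6.59% for Ptges2, with a median of 3.87%, against a median of 5.66% over all 12286 detected genes. None of the 7 reached a 1.5-fold gap between the highest and the lowest library, a gap found in 8.82% of all detected genes. Neither comparison with all detected genes was matched for level or number of reads. The widest gap among the 7 was 1.13-fold, for Ptges2. Library 1 was the highest for 5 genes, library 2 for 1 and library 3 for 4. Of the 3 genes not detected, Ptgir and Ptgfr varied 1.33-fold each, and Ptger2 varied 2.78-fold on its 20 reads. This rests on the deposited scale. The RPKM of all genes summed to a lower total in library 1, so that rescaling each library to the same sum (TPM) multiplied its values by 0.389, against 0.336 and 0.334 in libraries 2 and 3. On the TPM scale library 1 was the highest for 9 of the 10 genes, and the CV of the 7 genes ran from 5.78% to 15% with a median of 11.2%. Scaling by median ratios over detected protein-coding genes left the deposited values nearly as they were, with factors of 1.001, 1.003 and 0.996.

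Set against counting error, the genes differed. For Ptgis, Ptgs2, Ptgs1 and Ptges3, with 9005 reads or more over the libraries, counting alone would give a CV of 1.41% to 1.83%, while 3.87%, 4.57%, 5.91% and 3.37% were observed. For Ptges2 and Ptger2 the observed values were above the counting ones, at 6.59% against 6.42% and at 52.9% against 38.7%, and for Ptgir they were 14.8% against 9.79%. For Ptges, Ptgfr and Ptger4 the observed CV was below it, at 3.01% against 4.79%, 14.1% against 19.2% and 1.004% against 5.59%. A CV from 3 values is itself imprecise, and no test of these differences was made.

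**Figure D4:**
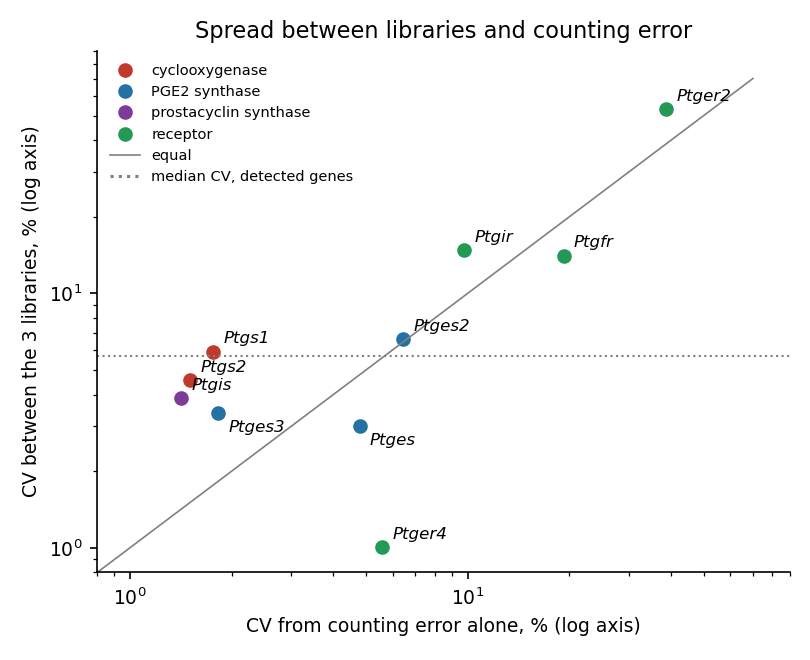
CV between the 3 libraries (vertical) against the CV that counting error alone would give (horizontal), both in % on log axes, for the 10 genes; the line marks equality and the dotted line the median CV of all detected genes, 5.66%. Ptgs1, Ptgs2, Ptgis and Ptges3 lie well above the line and Ptger4, at 1.004%, is farthest below it.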

How the data were processed

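RNA was purified with the miRNeasy kit and total RNA was made into libraries with the TruSeq V2 kit, per the labels' protocols. The authors deposited 1 table of RPKM values, per the file headers, with a column for each of 3 libraries, matched to the sample titles by number. The submitters' processing notes name mm10. No source used here names the aligner, the counter or the annotation release.

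Lengths, positions and overlaps came from GENCODE M21 (mm10), which held 42462 of the 43346 identifiers. A single read gives an RPKM fixed by length and library total, and the commonest such value gave each total (28791578 to 32962010 reads), with a gene length of the exon union plus 1 base. Of 3220 genes under 10 reads in each library, 86.2% then came out within 0.01 of a whole read in all 3. Reads of 8 of the 10 genes followed from that length, those of Ptger2 from its 3684-base transcript, and those of Ptgfr from the smallest whole reads with a whole length (4362 bases). On simulated data for at least 19143 genes in each of 3 libraries, the totals were recovered with an error of 0% and 100% of the reads. The share of reads covers only the genes scored, which were made with the same length rule. Whether that rule held for the genes of the deposited table was not tested in this way.

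No comparison between conditions exists. Ratios of 2 genes were taken per library as log2 after adding 0.1 to the RPKM, with a two-sided exact sign-flip permutation test. Intervals are exact Poisson at 95% and, like the 3-read level, cover counting error only. Copies were sought with BLAST 2.17.0 (90% identity over 100 bases). Computing used scipy 1.17.1, numpy 2.4.6 and pandas 2.3.3 under Python 3.11.15, and plots matplotlib 3.10.9. The 10 genes, lists and alternatives were chosen with earlier results of these data known. Named are the 10 genes, up to 4 highest and the lowest of each list, the 3 genes nearest in level to Ptgis and Ptgs2, and some overlapping genes and copies. Hpgds, Tbxas1 and Alox5 fall outside that rule and were named after their values were seen. Among copies not described above is Gm11893, a second Ptges3 pseudogene, 94.3% identical over 495 bases and listed at 0.254 to 0.847 RPKM. Further genes overlap the spans of Ptgs1, Ptges, Ptgis, Ptger2 and Ptgfr. Alternatives changed the added constant, gene length, scaling, thresholds and libraries used.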

Additional observations from a re-analysis of the deposited data

How the results depend on the processing

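Of 58 values recomputed under the alternatives, 53 kept their direction or stayed within 1.5 times the count reported. For the ratios most of this was fixed in advance, since each had the same sign in all 3 libraries. A changed constant, a library left out or the added Gm9769 reads therefore could not reverse a ratio. Only the change of gene length could. A kept direction also says nothing of size, as Ptger4 over Ptger2 went from 10.4-fold to 2.40-fold with 1 added. The 1 reversal was that of Ptgs2 over Ptgs1 per longest transcript, a log2 ratio of -0.17 against 0.22, which follows from the shorter Ptgs1 length. Over all 10 genes, detected or not, 1 had a 1.5-fold gap between libraries as deposited, the undetected Ptger2. This count was 2 after rescaling to TPM, when Ptgir joined Ptger2. It was 3 at the lower threshold, when Ptgir and Ptgfr joined Ptger2, and 0 when only genes averaging at least 1 were kept. With a library left out it was 0 to 1, being 0 without library 1. No share of all genes was computed beside these counts. The 8.82% given above covers only detected genes as deposited, so it is not a background for them. Detected genes numbered 8 at a threshold of 0.5, 5 at a threshold of 2, 8 by the mean, 5 after rescaling to TPM (0.514 to 0.594 TPM for Ptger4) and 7 to 8 with a library left out. The genes lost at 2 and after rescaling were Ptger4 and Ptges2. Rescaling multiplied the values by 0.334 to 0.389, so a cut at 1 TPM is stricter than one at an RPKM of 1. Shares of all genes detected under these alternatives were not computed. Depth limits Ptger2 (20 reads in all) and Ptgfr (81). The addition of the Gm9769 reads was chosen after seeing the data. No paired analysis was possible because there is a single group.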
